A study of Mus musculus with 8 samples.

Results

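Smarca2, which encodes the BRM ATPase of the SWI/SNF chromatin remodeling complexes, and 9 genes of its partner subunits (Smarca4, Arid1a, Arid1b, Pbrm1, Smarcb1, Smarcc1, Smarcc2, Smarcd3 and Smarce1) were followed in QZ1-hi and QZ1-lo cells of Eml4-Alk lungs. These 10 genes, of 27179 in the count table, were chosen by name with the difference between the QZ1-hi and QZ1-lo populations already known. Their values in that comparison are therefore a description. How many of them passed the threshold of the test over all genes is stated, but nothing is read from it. All 10 passed the filter on low counts, which left 15583 genes.

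SWI/SNF complexes use the energy of ATP to slide or evict nucleosomes and so open DNA to transcription factors. Each complex holds a single ATPase, either BRM (Smarca2) or BRG1 (Smarca4), built onto a core of SMARCC and SMARCD proteins, which SMARCB1 and SMARCE1 join in the BAF and PBAF classes. A further set of subunits sorts the complexes into classes. ARID1A or ARID1B and a DPF protein mark canonical BAF, whereas ARID2, PBRM1, PHF10 and BRD7 mark PBAF, and BRD9 with BICRA or BICRAL marks the noncanonical form. Several of these genes, among them Smarca4 and Arid1a, are recurrently mutated in human lung cancer.

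All libraries came from C57BL/6 mice (female C57BL/6J by the study's methods), 18 to 22 weeks old, whose Eml4 and Alk genes had been joined in the lung 11 to 12 weeks before by adenoviral delivery of Cas9 with guide RNAs, so that tumors driven by the Eml4-Alk fusion had formed. Every animal had received 4.5 nmol of QZ1-(PEG2K), a PEGylated probe whose Cy5 fluorescence is released when proteases cleave its linker, by tail vein 2 h before the lungs were removed. Viable CD45- CD11b- cells were split by Cy5 signal, gated against EpCAM, into 4 QZ1-hi and 4 QZ1-lo samples of at least 100000 cells each, described as biological replicates. Lungs without tumors or without the probe were not analysed here, both populations were mixtures of cell types, and no label ties a QZ1-hi sample to the QZ1-lo sample of the same mouse.

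Libraries are numbered within each population in the order of the samples, and equal numbers are not known to mark a pair. They held between 18380918 and 26847938 counts. Levels are given as CPM, counts scaled to library size with the TMM correction for library composition, and means are given ± SD over the 4 libraries of a population (n = 4 throughout). A level of 3 counts corresponded to between 0.0894 and 0.179 CPM. Mitochondrial and ribosomal RNA genes took 39.5, 56, 46.4 and 58.4% of counts in QZ1-hi against 30.2, 47.3, 33.2 and 38.4% in QZ1-lo (two-sided p = 0.0857 by an unpaired exact permutation test, for which 70 assignments allow no p under 0.0286). A positive log2 fold change means a higher level in QZ1-hi, and a gene was called when its adjusted p in edgeR's quasi-likelihood test was under 0.05. By that rule 18.1% of all genes tested were called, 9.88% higher and 8.21% lower in QZ1-hi.

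Smarca2 (Entrez 67155) spans chr19:26605073-26778321 on the plus strand of GRCm38.p6 in RefSeq, and GENCODE M21 puts its first start further upstream, at 26605050. The 140 bases that lie just before that earlier start and those before the first start of Smarca4 in either annotation (Entrez 20586, chr9:21616106-21704230, plus strand), the alternative ATPase, are shown because the order of these ATPase genes by level was opposite in the populations. Capitals mark matches to the GC box GGGCGG or its reverse complement CCGCCC. The sequences are from RefSeq, read 5′ to 3′, at chr19:26604910-26605049 and chr9:21615966-21616105.
Smarca2: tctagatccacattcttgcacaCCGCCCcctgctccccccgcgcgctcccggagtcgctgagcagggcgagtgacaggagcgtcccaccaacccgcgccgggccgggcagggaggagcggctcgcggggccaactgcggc
Smarca4: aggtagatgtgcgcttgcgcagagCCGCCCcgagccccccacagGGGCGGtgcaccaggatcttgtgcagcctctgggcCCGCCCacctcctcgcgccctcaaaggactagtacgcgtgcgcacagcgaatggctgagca
The Smarca2 stretch held 1 GC box match and the Smarca4 stretch 3, and 15.3% of 32851 stretches of this length, the first 140 bases of every promoter window of the RefSeq table, held at least 1. The Smarca4 stretch lies nearer to the start site of that table than those do, so its counts and these shares are from unlike positions. Both were rich in CpG, with 16 CpG in the Smarca2 stretch and 12 in the Smarca4 stretch against a median of 3 over all stretches. Neither stretch held, on either strand, CCAAT (in 18.7% of all stretches), TATAAA (6.89%), CACGTG (2.64%) or TGACTCA (2.33%). These matches describe letters only.

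Smarca2 had the largest difference between the populations among the members. Its level was 249.5, 218, 336 and 239 CPM in the QZ1-hi libraries and 56.4, 65.5, 79.6 and 61.4 CPM in the QZ1-lo libraries. The ranges were far apart, and the lowest QZ1-hi level was well over the highest QZ1-lo level. Means were 260.5 ± 51.8 and 65.7 ± 9.94 CPM, a 3.96-fold difference, with a log2 fold change of 1.99 (SE 0.17, 95% interval 1.62 to 2.35). These levels rest on 4009 to 5889 raw counts per QZ1-hi library and 1501 to 2199 per QZ1-lo library, and no more than 0.28% of the exon bases of Smarca2 are overlapped by a gene on the opposite strand. By size of the log2 fold change Smarca2 stood at place 815 of the 15583 genes, counted from the most raised.

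Smarca4, which encodes the BRG1 ATPase, was at 156, 144, 149 and 142 CPM in QZ1-hi and at 169, 159, 159 and 172 CPM in QZ1-lo. The QZ1-hi libraries were all slightly below the QZ1-lo libraries, with a log2 fold change of -0.16 (SE 0.10, 95% interval -0.38 to 0.06). With the levels divided by exon length, the ratio of Smarca2 to Smarca4 was 1.4, 1.32, 1.97 and 1.47 in QZ1-hi and 0.292, 0.361, 0.437 and 0.312 in QZ1-lo. The order of the ATPase genes was thus opposite in the 2 populations, with Smarca2 ahead in 4 of 4 QZ1-hi libraries and Smarca4 ahead in 4 of 4 QZ1-lo libraries. Smarca2 made up 60.3% of the length-corrected ATPase transcripts in QZ1-hi (range 56.9 to 66.3%) and 25.8% in QZ1-lo (range 22.6 to 30.4%).

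The summed level of both ATPase genes was 58.6, 52.4, 69.3 and 54.9 CPM per kb in QZ1-hi and 34.2, 33.8, 35.8 and 35.4 CPM per kb in QZ1-lo. The sums did not overlap, and their difference came from Smarca2, since Smarca4 was slightly lower in QZ1-hi. The summed level of Smarcc1 and Smarcc2, which encode the scaffold proteins of the complexes, was 33.7 ± 3.04 CPM per kb in QZ1-hi and 31.2 ± 2.71 in QZ1-lo, and those ranges overlapped. ATPase transcripts per SMARCC transcript, on the same per-length scale, therefore came to 1.76 ± 0.344 against 1.12 ± 0.114, without overlap.

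**Figure D1:**
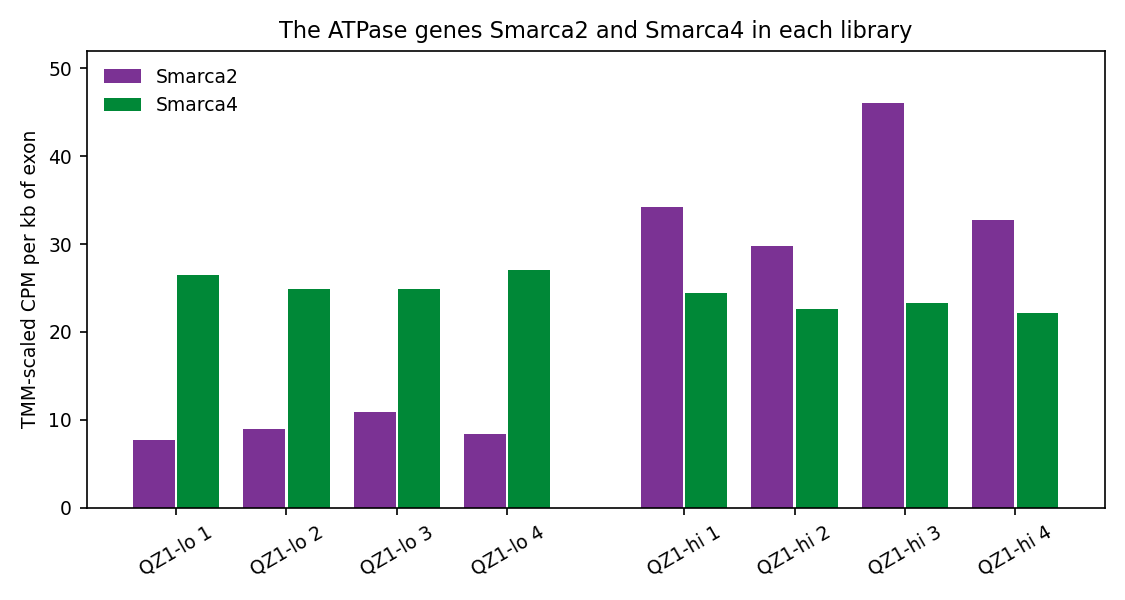
Levels of Smarca2 and Smarca4 per kilobase of exon (CPM per kb) in each library, by population. Smarca2 lies between 29.8 and 46 CPM per kb in QZ1-hi and between 7.73 and 10.9 in QZ1-lo, whereas Smarca4 lies between 22.2 and 27 in all 8 libraries.

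The other members had small fold changes. None of the 9 other than Smarca2 was called by edgeR (0 at an unadjusted p under 0.05), by DESeq2 (0 unadjusted) or by limma-voom (1 unadjusted). Of all 15583 genes tested, 4509 had an unadjusted p under 0.05 in edgeR. The log2 fold changes of the 9 ran from -0.26 to 0.26, with a median of -0.09. Over all genes tested the median was 0.02 and the median size 0.33. Of the 10 members 1, Smarca2, was called (18.1% of all genes tested), and the populations did not overlap for 2, Smarca2 and Smarca4 (22.6% of all genes tested). Because the members were chosen with this comparison known, nothing is read from these counts. With scaling by library size only, the median over all genes was -0.44, that of the 10 members -0.55, Smarcc2, Smarcd3 and Smarce1 were below 0, and Arid1a passed the threshold too, at -0.75, whereas Smarca2 lay 1.99 above the median of all genes (1.96 with TMM scaling).

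**Figure D2:**
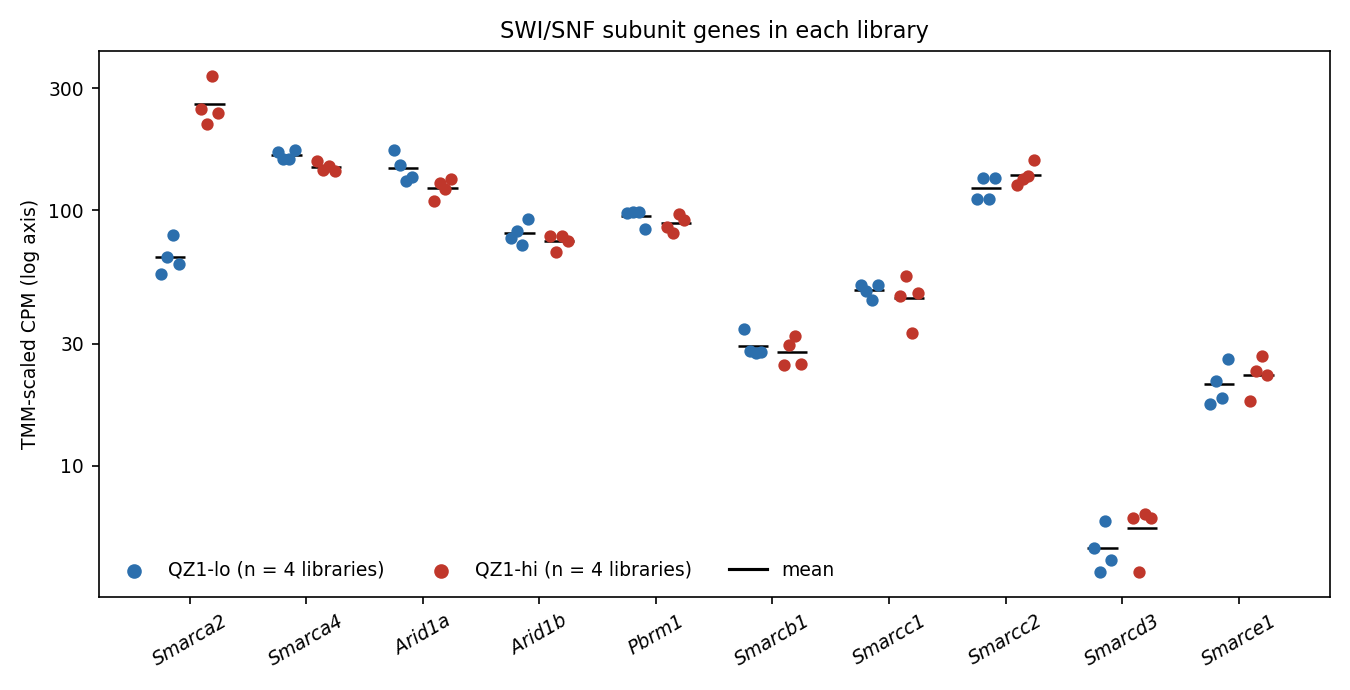
Level of each of the 10 members in each library (CPM, log axis), with QZ1-hi and QZ1-lo side by side. Smarca2 is set apart by population, from 218 to 336 CPM against 56.4 to 79.6 CPM, whereas the points of the other members lie close together or overlap.

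Among the core subunits, Smarcc2 (Entrez 68094, chr10:128459182-128490591), which encodes the BAF170 scaffold, was at 125, 132, 136 and 157 CPM in QZ1-hi and 111, 133, 110.2 and 133 CPM in QZ1-lo. The ranges overlapped, and its log2 fold change was 0.18 (SE 0.12, 95% interval -0.09 to 0.44). Smarcc1 (Entrez 20588, chr9:110132024-110240178), for the BAF155 scaffold, was at 46.3, 55.3, 33 and 47.4 CPM in QZ1-hi and 51.1, 48.3, 44.4 and 50.9 CPM in QZ1-lo, with a log2 fold change of -0.10 (SE 0.15, 95% interval -0.43 to 0.24). The QZ1-hi libraries spread wider than the QZ1-lo libraries and covered their whole range. Per length, Smarcc1 was at 0.264 ± 0.0608 of Smarcc2 in QZ1-hi and 0.32 ± 0.0331 in QZ1-lo, with overlap, so Smarcc2 was the more abundant of the pair in all 8 libraries.

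Smarcb1 (Entrez 20587, chr10:75896769-75921614), which encodes the SNF5 core protein that contacts the nucleosome, was at 24.8, 29.8, 32.3 and 25.1 CPM in QZ1-hi and 34.4, 28.2, 27.6 and 27.9 CPM in QZ1-lo. The values interleaved, and the log2 fold change was -0.08 (SE 0.14, 95% interval -0.39 to 0.23). Smarce1 (Entrez 57376, chr11:99209047-99231017), for the DNA-binding BAF57 subunit, was at 18, 23.5, 26.8 and 22.7 CPM in QZ1-hi and 17.5, 21.4, 18.4 and 26.1 CPM in QZ1-lo, with a log2 fold change of 0.12 (SE 0.17, 95% interval -0.26 to 0.51). Of the stretches of 50 bases in Smarce1 exons, 15% also occur in another gene, most of them in Gm8494, so its level is less certain than those of Smarcc1, Smarcc2 and Smarcb1.

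Smarcd3 (Entrez 66993, chr5:24592622-24624456), which encodes BAF60C and was the lowest of the members, was at 6.23, 3.85, 6.48 and 6.26 CPM in QZ1-hi and 4.77, 3.86, 6.08 and 4.3 CPM in QZ1-lo. The populations overlapped, and the log2 fold change of 0.26 had the widest interval of the 10 members (SE 0.27, 95% interval -0.33 to 0.85). Exons of Chpf2 on the opposite strand overlap 48.2% of its exon bases, and since the strand setting of the counting is not given in the sources used here, reads of the 2 genes cannot be told apart. Smarcd3 made up 18 ± 5.14% of the length-corrected SMARCD transcripts in QZ1-hi and 16.7 ± 3.75% in QZ1-lo. Smarcd1 (log2 fold change 0.04) and Smarcd2 (0.19), the alternative genes for that position, were not called in edgeR's test (adjusted p = 0.949 and 0.569).

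For canonical BAF, Arid1a (Entrez 93760, chr4:133679008-133756769), which encodes the DNA-binding ARID subunit of that class and is a tumor suppressor gene, was at 109, 128, 121 and 132 CPM in QZ1-hi and 172, 150.2, 129.9 and 135 CPM in QZ1-lo. The ranges touched, with the highest QZ1-hi library just above the lowest QZ1-lo library, and the log2 fold change was -0.26 (SE 0.12, 95% interval -0.53 to 0.01). Arid1b (Entrez 239985, chr17:4994297-5347656), its paralog and alternative in the complex, was at 79.2, 68.7, 79.4 and 75.6 CPM in QZ1-hi and 77.6, 82.6, 73.1 and 92.2 CPM in QZ1-lo, with a log2 fold change of -0.10 (SE 0.11, 95% interval -0.36 to 0.15). Per length Arid1a exceeded Arid1b in all 8 libraries, by 2.18 ± 0.291 fold in QZ1-hi and 2.44 ± 0.418 fold in QZ1-lo, with overlap. Of the DPF genes, which encode histone-reading fingers of canonical BAF, Dpf2 was at a log2 fold change of 0.29 (edgeR adjusted p = 0.335) and Dpf3 lay below 1 CPM in all 8 libraries. Dpf1 did not pass the filter, with 77 counts in all of QZ1-hi, 53 of them in replicate 2, and 38 in QZ1-lo.

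For PBAF, Pbrm1 (Entrez 66923, chr14:31019138-31121592), which encodes the polybromo protein that reads acetylated histones, was at 86.3, 81.6, 96.3 and 91.6 CPM in QZ1-hi and 97.3, 98.7, 98.1 and 84.1 CPM in QZ1-lo. The populations overlapped through QZ1-lo replicate 4, and Pbrm1 had a log2 fold change of -0.09 (SE 0.11, 95% interval -0.33 to 0.15). The PBAF genes outside the 10 were tested. Arid2, the ARID subunit of this class, fell from 73.4, 78.2, 62.2 and 65.5 CPM in QZ1-lo to 45.2, 49.1, 39 and 54.9 CPM in QZ1-hi (log2 fold change -0.57, SE 0.13, edgeR adjusted p = 0.0126), with every QZ1-hi library below every QZ1-lo library. Phf10, for the BAF45A histone reader, fell from 27.8, 24.4, 28.6 and 29.7 CPM to 21.7, 18.1, 18.1 and 18.8 CPM (log2 fold change -0.53, SE 0.13, edgeR adjusted p = 0.017). Its populations did not overlap either, although 9.56% of its exon bases are overlapped by 1600012H06Rik on the opposite strand, and the call was lost without QZ1-lo replicate 4 (log2 fold change -0.49, edgeR adjusted p = 0.0523). Brd7, the bromodomain subunit of PBAF, was at a log2 fold change of 0.03 (edgeR adjusted p = 0.89).

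Because Arid1a and Arid2 take the same place in alternative complexes, their ratio was also taken per length. It was 2.48, 2.67, 3.18 and 2.46 in QZ1-hi and 2.41, 1.97, 2.14 and 2.11 in QZ1-lo. The ratios did not overlap, although the lowest QZ1-hi and highest QZ1-lo ratios nearly met. Arid2 was therefore lower relative to Arid1a in the QZ1-hi libraries, while Arid1a itself was at a lower mean there too.

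For the noncanonical class, Brd9, whose bromodomain protein is found only in that form, was at 29.2, 28, 29.7 and 32.7 CPM in QZ1-hi and 19.9, 20, 20.8 and 18.5 CPM in QZ1-lo. Every QZ1-hi library was higher, a 1.51-fold difference (log2 fold change 0.59, SE 0.12, edgeR adjusted p = 0.00569), but with scaling by library size only the log2 fold change was 0.12 (edgeR adjusted p = 0.75). Brd9 over Brd7, per length, was 0.57 ± 0.0552 in QZ1-hi and 0.384 ± 0.0287 in QZ1-lo, without overlap, a ratio that does not depend on the scaling of libraries. Bicra and Bicral, the alternative scaffolds of this class, were at log2 fold changes of 0.43 and -0.08 and were not called (edgeR adjusted p = 0.186 and 0.774).

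Of the accessory genes, Bcl7a, a small subunit whose human gene is altered in B cell lymphoma, was lower in QZ1-hi, at 7.58, 5.53, 4.28 and 5.84 CPM against 10.8, 12.2, 10.7 and 8.14 CPM in QZ1-lo (log2 fold change -0.84, SE 0.23, edgeR adjusted p = 0.0256). The populations did not overlap, but the call was lost in 6 of the 8 fits that left out 1 library (edgeR adjusted p from 0.0504 to 0.0781), namely those without QZ1-hi replicate 2, 3 or 4 or without QZ1-lo replicate 1, 2 or 3. Its relative Bcl7b was at a log2 fold change of 0.44 (edgeR adjusted p = 0.117). Actb, the gene of the beta-actin that also sits in these complexes, was at 2515 ± 84.7 CPM in QZ1-hi and 2688 ± 144 CPM in QZ1-lo, and the ranges overlapped. Actl6b, the actin-related subunit of neurons, was near 0, with 0 counts in QZ1-hi and 2 in QZ1-lo.

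Altogether 17 of the 19 remaining subunit genes were tested, of which 1 rose, 3 fell and 13 were not called, with a median log2 fold change of 0.03. The share called was 23.5%, against 18.1% of all genes tested and 24.7% of those with a mean of at least 20 CPM. An unadjusted p under 0.05 in edgeR was reached by 5 of the 17, and by 4509 of all 15583 genes tested. By class of subunit, members and remaining genes together, none of 7 core and none of 4 tested canonical BAF genes was called in either direction. Of 4 PBAF genes 2 fell, of 3 noncanonical genes 1 rose, and of 7 tested accessory genes 1 fell. Over all genes tested, 9.88% rose and 8.21% fell. The classes are small and hold members chosen with this comparison known, so nothing is read from these counts. Whether the classes differ from each other was not tested.

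**Figure D3:**
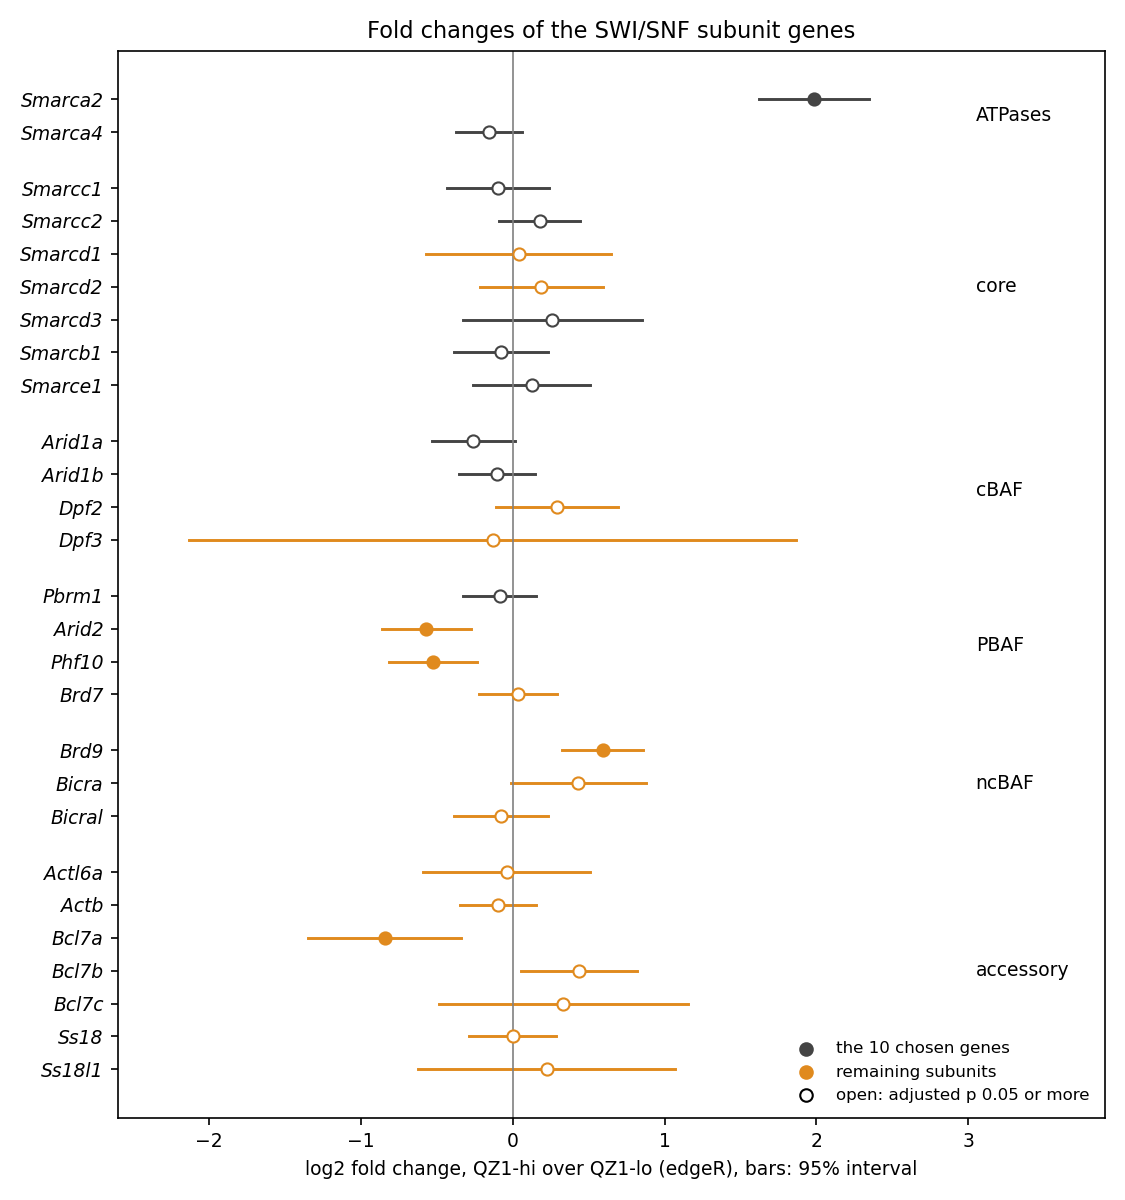
Log2 fold change of each tested subunit gene, QZ1-hi relative to QZ1-lo, with its 95% interval, grouped by class of subunit. Dark points are the 10 chosen genes, orange points the remaining 17, and filled points have an edgeR adjusted p under 0.05. Smarca2 at 1.99, which was chosen with its difference known, lies far to the right of Brd9 at 0.59, the next called gene.

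Ordered by level per length, the members ran in QZ1-hi from Smarca2 (35.7 ± 7.09 CPM per kb) through Smarcc2 (26.7), Smarca4 (23.1), Smarcb1 (16.9), Arid1a (14.3), Pbrm1 (11), Smarce1 (7.79), Smarcc1 (7.02) and Arid1b (6.61) to Smarcd3 (2.93). Overlapping neighbours in that order were Smarca2 with Smarcc2, Smarcc2 with Smarca4, Smarcb1 with Arid1a, Smarce1 with Smarcc1, and Smarcc1 with Arid1b. In QZ1-lo the order was Smarca4 (25.8 ± 1.06 CPM per kb), Smarcc2 (23.6), Smarcb1 (17.8), Arid1a (17.1), Pbrm1 (11.6), Smarca2 (9), Smarcc1 (7.51), Smarce1 (7.15), Arid1b (7.1) and Smarcd3 (2.44). Here Smarca4 overlapped Smarcc2, Smarcb1 overlapped Arid1a, and Pbrm1, Smarca2, Smarcc1 and Smarce1 each overlapped the next. Smarca2 thus went from place 6 of 10 in QZ1-lo to place 1 in QZ1-hi, and no other member moved by more than 2 places.

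Genes of the other chromatin remodelers were set beside the subunits. Of 46 tested, 1 rose and 5 fell (13% called, against 18.1% of all genes tested), with a median log2 fold change of -0.09. An unadjusted p under 0.05 in edgeR was reached by 10 of the 46, and by 4509 of all 15583 genes tested. DESeq2 called 9 of the 46 (3418 of all genes) and limma-voom 8 (2894). With scaling by library size only, edgeR called 9 (3391 of all genes), none of them higher in QZ1-hi. Mbd2, a methyl-CpG binding subunit of NuRD, was higher in QZ1-hi (log2 fold change 0.45, SE 0.12, edgeR adjusted p = 0.0202), a log2 fold change that came to 0.002 with scaling by library size only (edgeR adjusted p = 0.997). Cecr2 (-0.98, edgeR adjusted p = 0.00636) and Bptf (-0.38, 0.0361), both partners of ISWI ATPases, were lower in QZ1-hi, as were Chd1, an ATPase of active genes (-0.50, 0.00837), and Ruvbl2 (-0.93, 0.00837) and Ino80d (-0.37, 0.0359) of the INO80 complex. These calls were partly fragile with 1 library left out: Bptf was lost without any library but QZ1-lo replicate 3 (edgeR adjusted p from 0.0556 to 0.121), Ino80d without any but QZ1-hi replicate 3 or QZ1-lo replicate 3 (0.0652 to 0.116), and Mbd2 without QZ1-hi replicate 3 or QZ1-lo replicate 1 or 2 (0.0525 to 0.0866). Over all 8 libraries with TMM scaling, the sizes of these 6 were under 1. The larger value of Smarca2 is no test, because Smarca2 was chosen with its difference known. Smarca5, the main ISWI ATPase, had a log2 fold change of -0.003.

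None of the 11 genes of PRC2, the Polycomb complex that opposes SWI/SNF at many genes, was called by edgeR, DESeq2 or limma-voom. Of all genes tested, 18.1% were called by edgeR. None of the 11 had an unadjusted p under 0.05 in any of these tests, beside 4509 of all 15583 genes in edgeR. The log2 fold changes of the 11 ran from -0.27 to 0.53, with a median of -0.02.

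**Figure D4:**
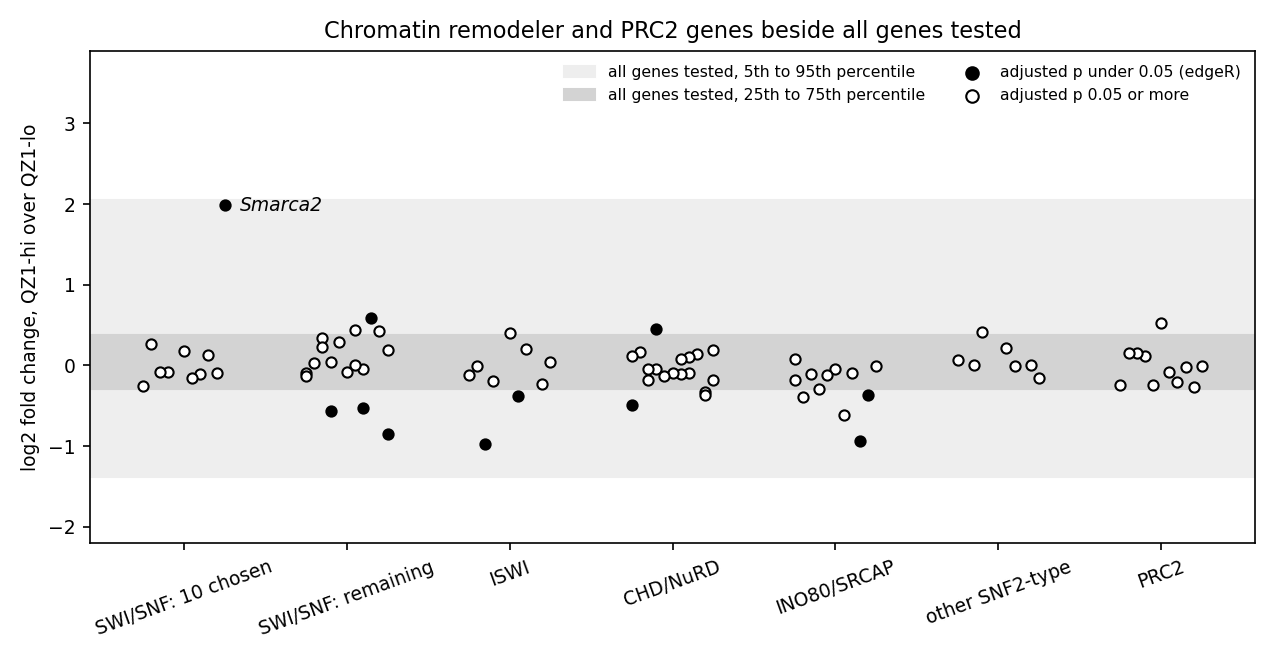
Log2 fold change, QZ1-hi relative to QZ1-lo, of single genes in the SWI/SNF subunits, the other remodeler families and PRC2, over grey bands for the middle range of all 15583 genes tested. Smarca2 at 1.99, which was chosen with its difference known, lies above every other gene shown. The 46 other remodeler genes lie between -0.98 and 0.45.

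Markers of cell types differed between the populations and were set beside Smarca2. In a bulk sample, more cells of a type and more RNA per cell cannot be told apart. The summed level of 12 endothelial markers, of which Cdh5 was the most abundant and 12 of 12 rose, was 2131, 1252, 2774 and 1232 CPM in QZ1-hi and 158, 202, 392 and 148 CPM in QZ1-lo. In each population the library with the most Smarca2, numbered 3 in both, was also the one with the highest endothelial sum. Fibroblast markers (8 of 9 rose, Col3a1 the most abundant) summed to 1754, 2970.1, 3397 and 1724 CPM in QZ1-hi and 141, 363, 377 and 43.9 CPM in QZ1-lo. These libraries had the highest fibroblast and pericyte sums of their populations as well, and the QZ1-lo library also had the highest smooth muscle, general epithelial, ciliated, alveolar type 1 and alveolar type 2 sums.

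Markers of pericytes (4 of 8 rose, Pdgfrb the most abundant) summed to 61.6 to 91.5 CPM in QZ1-hi and 11 to 29.1 CPM in QZ1-lo, and those of mesothelium (4 of 4, Upk3b) to 38.4 to 268 and 5.93 to 36.5 CPM. Smooth muscle markers (3 of 6 rose and 1 fell, Des) summed to 48.1 to 94.4 CPM against 12.4 to 26.3 CPM. Des, which the study uses as a pericyte marker, was at 38.9 CPM in QZ1-hi and 6.25 CPM in QZ1-lo on average. Acta2 and Actg2 were not called, and Cnn1, under 1 CPM in every library, was the gene that fell. The pericyte, mesothelial and smooth muscle sums thus all stood higher in every QZ1-hi library than in any QZ1-lo library. In QZ1-hi they were far under the endothelial and fibroblast sums. Lists of unlike length and abundance do not compare amounts of cell types.

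Epithelial markers went the other way. General epithelial markers (6 of 6 fell, Cdh1 the most abundant) summed to 823, 813, 589 and 529.5 CPM in QZ1-hi and 1895, 1718, 2034 and 1471 CPM in QZ1-lo. Club cell (3 of 3 fell, Scgb1a1), ciliated cell (6 of 6 fell, Tppp3) and alveolar type 1 markers (4 of 5 fell and 1 rose, Ager) had the same order, with sums of 311 to 973, 61.7 to 161 and 408 to 643 CPM in QZ1-hi against 1389 to 3998, 242 to 525 and 794 to 965 CPM in QZ1-lo. Alveolar type 2 markers, of which 2 of 7 rose, summed to 6209.9 to 11427 CPM and 4559 to 7177 CPM, with Sftpc the most abundant, so both populations carried defining transcripts of lung. With scaling by library size only, none of these 7 was called and their median log2 fold change was -0.04, in place of 0.39.

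Immune markers were present although the cells were sorted as CD45-: they summed to 2908 to 6217 CPM in QZ1-hi and 2092 to 4113 CPM in QZ1-lo, mostly Lyz2, with none of 8 called, and Ptprc, the gene of CD45, was at 71.4 to 222 CPM and 93.4 to 161 CPM. Erythroid genes (none of 4 called, Hba-a2) summed to 131, 447, 376 and 1006 CPM in QZ1-hi and 282, 1587, 961 and 3097 CPM in QZ1-lo. By library number these sums ran in the same order in both populations, and each was lower in QZ1-hi. Proliferation genes (1 of 7 rose, Mki67 the most abundant) summed to 151 to 208 CPM and 102 to 150.2 CPM, and none was called with scaling by library size only, when all 4 erythroid genes were called lower in QZ1-hi. Neuroendocrine genes (2 of 4 tested, none called, Uchl1) summed to 1.19 to 2.84 CPM and 2.5 to 4.64 CPM. No listed marker was at 0 in every library. The part of these cell types in the level of Smarca2 was not tested. No relation across libraries was tested either, since the populations form separate clusters and each holds only 4 libraries.

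**Figure D5:**
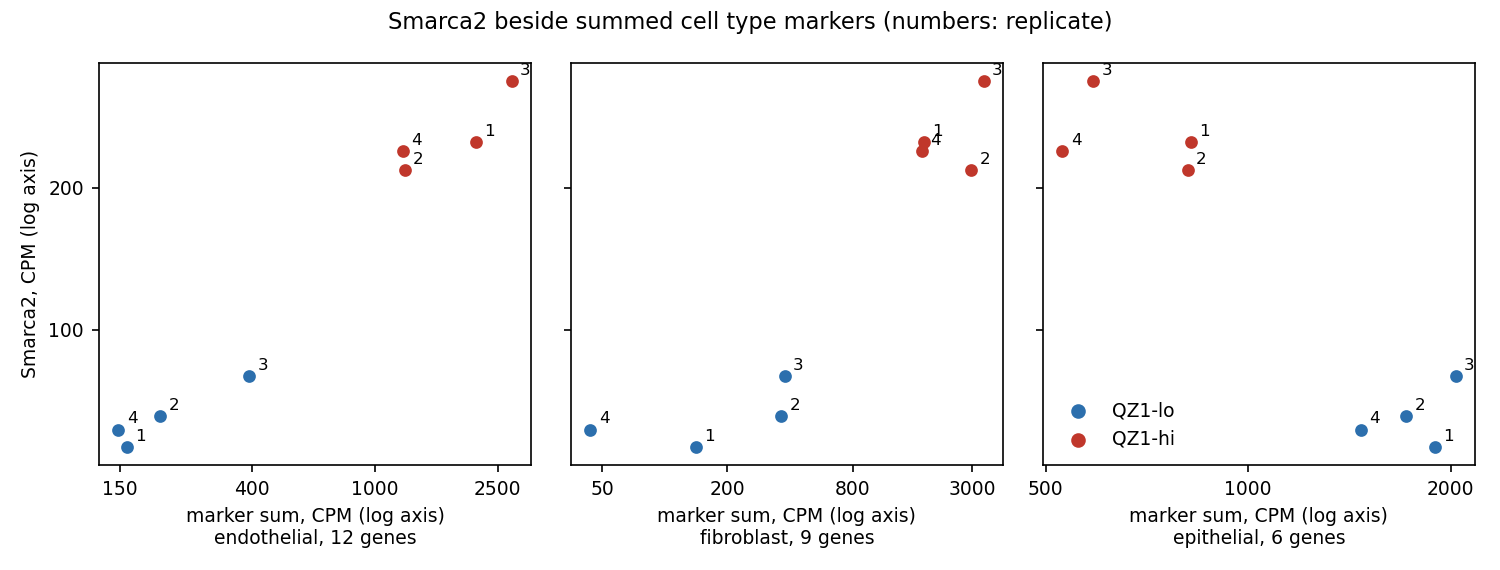
Level of Smarca2 (CPM, log axis) against the summed level of endothelial, fibroblast and epithelial markers (CPM, log axes) in each library, numbered by replicate. The QZ1-hi libraries, with Smarca2 from 218 to 336 CPM, lie at high endothelial and fibroblast and low epithelial sums, and the populations form separate clusters in each panel.

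The genes whose log2 CPM followed Smarca2 most closely over the 8 libraries, among 7889 genes with a mean of at least 10 CPM, were Arhgef15 (r = 0.995), Mndal (0.993), Itga1 (0.992), Nod1 (0.992) and Hecw2 (0.992). Their log2 fold changes were 3.54, 1.2, 2.67, 1.25 and 3.04, so this likeness largely repeats the difference between the populations, which all 8 points share. After the population means were removed, the closest genes were C2cd2 (0.981), Epas1 (0.976), Arhgef10 (0.973), Rabep2 (0.963) and Ankrd50 (0.961). Epas1, which encodes the hypoxia-inducible factor HIF-2 alpha, was at 1065 CPM in QZ1-hi and 264 CPM in QZ1-lo on average, a log2 fold change of 2.01 that is close to that of Smarca2, whereas C2cd2 was at 21.4 and 20.4 CPM. These are the highest of 7889 values over 8 points, given as a description.

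The nearest protein-coding genes beside Smarca2 on chr 19, chosen by position after its own values were known, lie far off. Vldlr, a lipoprotein receptor gene that starts 438 kb after Smarca2, was at 16.8 ± 5.25 CPM in QZ1-hi and 7.18 ± 1.76 CPM in QZ1-lo, and rose without overlap (log2 fold change 1.23, SE 0.25, edgeR adjusted p = 0.00544, and 0.81 with adjusted p = 0.069 when scaled by library size only). Gm815, 108 kb after it, had 0 counts in all libraries. Before Smarca2, Dmrt2, at a distance of 926 kb, was under 1 CPM on average in both populations (log2 fold change -1.34, edgeR adjusted p = 0.337), and Dmrt3, at 981 kb, had 12 counts in QZ1-hi and 10 in QZ1-lo and was not tested.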

How the data were processed

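Bulk RNA-seq of 4 QZ1-hi and 4 QZ1-lo samples was analysed. For 27179 Entrez identifiers, the deposited values are unnormalized whole counts that the authors obtained with Rsubread from stranded total RNA libraries. The submitters' processing notes name mm10 and DESeq2. The aligner, the annotation and the strand setting are not given in the sources used here. Symbols came from RefSeq (25275) and GENCODE M21 (18), and 1886 identifiers had none.

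In R 4.3.3, edgeR 4.0.16 was run with TMM scaling, filterByExpr (minimum count 10, minimum total count 15) and its quasi-likelihood test between the populations on the 15583 genes left, with Benjamini-Hochberg adjustment and a threshold of 0.05. The SE of a log2 fold change is its absolute value over the root of the F statistic. Levels per length use merged GENCODE M21 exons. Totals per library limit precision, and floors in counts cover counting error only. The intervals of log2 fold changes are built from this SE of the quasi-likelihood test, and so take in the spread between libraries. The members and lists were chosen with earlier results of these data known. Genes named are those of the lists, the 5 most like Smarca2 by each of 2 measures, and the neighbours of Smarca2. On simulated counts for this comparison (15583 genes, 100 changed at each size), edgeR called 40 at a log2 fold change of 1 and 73 at 2, and 15 unchanged genes. DESeq2 1.42.0, limma 3.58.1 (voom), other scalings and filters, a threshold of 0.01 and fits with 1 library omitted were alternatives. The ratios of Arid1a to Arid2 and of Brd9 to Brd7, the family sums, the longest transcript as gene length, and the marker lists and neighbours under library size scaling were added after the data were seen.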

Additional observations from a re-analysis of the deposited data

Results flagged for a closer look

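In groups of 4 libraries, 1 library lay far from the other 3 by Dixon's criterion (gap over range above 0.829) in 9 of 86 groups examined, where chance gives about 1 in 20. The 9 were subunit levels or marker sums. Among the 10 members, Pbrm1 was at 84.1 CPM in QZ1-lo replicate 4 and between 97.3 and 98.7 CPM in the remaining QZ1-lo libraries. Smarcb1 was at 34.4 CPM in QZ1-lo replicate 1 against 27.6 to 28.2 CPM, and without that library its log2 fold change was 0.004. Smarcd3 was at 3.85 CPM in QZ1-hi replicate 2 against 6.23 to 6.48 CPM. Of the remaining subunits, Actl6a was at 27.4 CPM in QZ1-lo replicate 3 against 15.3 to 16.5 CPM.

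QZ1-hi replicate 2 had high mesothelial (268 CPM against 38.4 to 66.1) and club cell marker sums (973 CPM against 311 to 389), and QZ1-hi replicate 4 had high immune (6217 CPM against 2908 to 3374) and proliferation sums (208 CPM against 151 to 158). The neuroendocrine sum was 4.64 CPM in QZ1-lo replicate 2 against 2.5 to 2.86 CPM. Smarca2 was not among these: the library farthest from its own population was QZ1-hi replicate 3, at 336 CPM.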

How the results depend on the processing

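The log2 fold change of Smarca2, a description like those of the other members, ran from 1.54 to 2.09 over the alternatives (1.81 to 2.09 with 1 library left out), or 1.82 to 2.06 above the median of all genes. With scaling by library size only, 882 genes were called higher and 2509 lower, 2 members passed the threshold (Arid1a at -0.75 besides Smarca2), and Smarcc2 (-0.29), Smarcd3 (-0.20) and Smarce1 (-0.34) turned negative. That scaling moved the median of all genes from 0.02 to -0.44. Without QZ1-lo replicate 1, Smarcb1 was at 0.004 (-0.18 to 0.004 over the libraries left out). At an adjusted p under 0.01, 1567 genes were called, 902 higher and 665 lower, with 1 remaining subunit (Brd9) and 3 other remodelers. With 1 library left out, 2187 to 2543 genes were called (1136 to 1506 higher, 938 to 1201 lower), with 1 member and 3 to 4 remaining subunits. The other remodelers called numbered 3 to 6, with 3 in the fits without QZ1-lo replicate 1 or 2. Over the 17 settings with a threshold of 0.05, Arid2 was called in 17, Brd9 and Phf10 in 16 and Bcl7a in 11. Bptf lost its call in 8, Ino80d in 7 and Mbd2 in 4. With the longest transcript as length, Smarca2 made up 65.1% and 30% of the ATPase transcripts. The causes of these changes were not tested. No paired analysis was possible because the labels give no replicate number, mouse or batch to pair by. Libraries of the populations may still share mice, and sample order was not used to pair them. Some marker sums, such as the erythroid ones, ran in the same order by library number in both populations. The unpaired calls could therefore differ from those of a paired fit, which was not made. With 4 libraries a population, the 95% interval of the lowest member, Smarcd3, spans -0.33 to 0.85.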
